A study of Homo sapiens with 9 samples.

Results

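Of the 4804 ZEB1 peaks of unmodified MiaPaCa2 cells, 750 were under 1000 bp wide and overlapped, by at least 1 bp, a ZEB1 peak in each of 3 other lists. Those lists came from RKO cells and from 2 MiaPaCa2 clones, named WT and delta-Repeat. These 750 narrow shared peaks, called members here, were 15.6% of the MiaPaCa2 list. They were 16.3% of its 4594 peaks under 1000 bp. A further 164 peaks were shared by all 4 lists but were 1000 bp or wider. The members were thus chosen by their presence in the ZEB1 lists and their width in MiaPaCa2, and their values in these lists are a description without a test.

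Binding was mapped by chromatin immunoprecipitation and sequencing of the recovered DNA (ChIP-seq), with 1 ZEB1 sample per condition and 1 sample for the insulator protein CTCF in unmodified MiaPaCa2 cells. MiaPaCa2 is a pancreatic ductal adenocarcinoma line and RKO a colon carcinoma line, and both were untreated. The WT clone was grown by dilution from MiaPaCa2 cells electroporated with a Cas9 nickase plasmid. The delta-Repeat clone had a similar origin, but its plasmids also carried pairs of guide RNAs against the repeated sequence upstream of MIR200A and MIR200B. Each clone is a single clone. All 4 ZEB1 samples used 1 antibody, SC-25388, with lot K1615 for both clones, lot H1513 for MiaPaCa2 and lot G2315 for RKO. With 1 sample per condition, no difference between lists can be set against a spread between cultures.

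ZEB1 is a transcription factor with a cluster of zinc fingers at each end of the protein, and these bind short E-box elements in DNA. It represses epithelial genes, among them the miR-200 microRNAs, which in turn repress ZEB1. This loop is known as a switch of the epithelial-to-mesenchymal transition in carcinoma cells. A ChIP-seq peak is a stretch where reads pile up over the background, and its summit is the base of highest pile-up. A single site can give a narrow peak, and an array of sites a wide one. Among members, width also rose with peak strength, so width alone does not tell these apart. All positions are hg19 coordinates counted from 1. Peaks are named by position, since no gene annotation or sequence of that build was used.

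The members held most of the stronger narrow binding of MiaPaCa2 cells. Fold enrichment, the authors' ratio of signal over background at the summit, ran from 1.84 to 71.4 in the MiaPaCa2 list, with a median of 12.4. The median over the 4594 narrow peaks was 6.44. Of the members, 596 (79.5%) were in the strongest of 4 equal classes of the MiaPaCa2 list by fold. Among the 100 strongest MiaPaCa2 peaks 38 were members and 60 were wide shared peaks, and 2 were neither. Among the 500 strongest, 317 were members, 125 were wide shared peaks and 58 were neither. The narrow peaks found in no other ZEB1 list numbered 1470 and had a median fold of 5.62. Those also in RKO alone numbered 1161, with a median of 5.93, and those in both clones but not in RKO numbered 151, with a median of 9.34.

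By rank the members stood about as high in the RKO list as in MiaPaCa2, and nearer the middle of both clone lists. Their median relative rank, as a percent of the list counted from the strongest peak, was 12.4 for MiaPaCa2 and 11.3 for RKO, against 41.2 and 28.4 for the WT and delta-Repeat clones. Their median fold was 10.9 in RKO (whole list 6.04), 8.15 in the WT clone (whole list 7.46) and 9.07 in the delta-Repeat clone (whole list 7.06). The strongest class held 72.3% of them in RKO, 45.5% in the delta-Repeat clone and 31.5% in the WT clone. The peaks at members made up 49.5% of the WT clone list, 34.6% of that of the delta-Repeat clone and 10.4% of that of RKO, which limits how far they can stand above a list's median. Only 173 members were in the strongest class of all 4 lists, and 187 were in the weakest class of at least 1. Across the 750 members, the folds of MiaPaCa2 ranked most like those of the WT clone (Spearman's rho 0.69) and the delta-Repeat clone (0.67), then RKO (0.49). The clones gave 0.62 with each other, and RKO gave 0.40 with the WT clone and 0.44 with the delta-Repeat clone. These correlations are descriptions over peaks, which are not independent replicates.

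**Figure D1:**
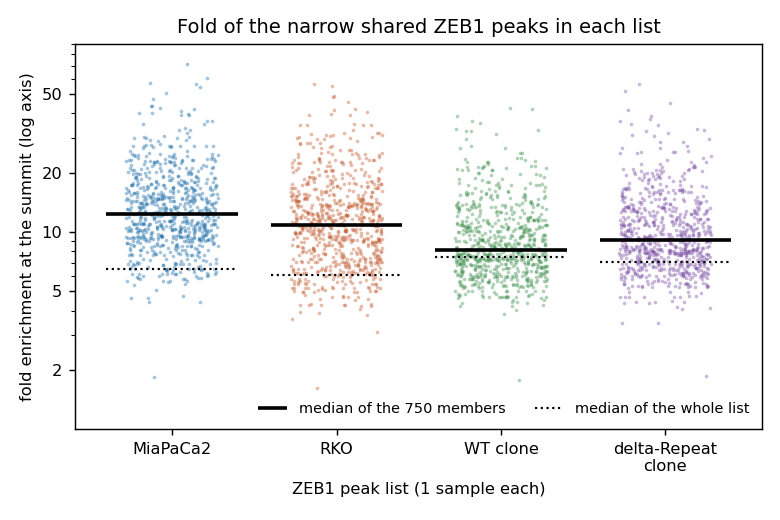
Fold enrichment at the summit (log axis) of each of the 750 members in the 4 ZEB1 lists, with 1 point per member, a solid line at the members' median and a dotted line at the median of the whole list. The members' median is 12.4 in MiaPaCa2 against 6.53 for the list, and 8.15 in the WT clone against 7.46; the single lowest point of every list is the same region of chromosome 1.

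The strongest members ranked high in all 4 lists. Folds of different lists are not on one scale, because depth and control differ, so lists are compared below by rank and not by fold. The peak on chromosome 1 from 89990490 to 89991343 had a fold of 71.4 in MiaPaCa2, 45.9 in RKO, and 42.8 and 52.1 in the WT and delta-Repeat clones. It ranked 3, 19, 6 and 4 in these lists, the best of any member when the poorest of its 4 ranks, relative to list length, is taken. The next member by MiaPaCa2 fold lay on chromosome 5 from 138088118 to 138089045. Its folds were 60.6, 23.1, 42.1 and 56.4 in the same order, and it ranked 7, 133, 7 and 3, so RKO placed it lowest. On chromosome 19, the member from 11319349 to 11320299 had folds of 56.6, 56.4, 32.6 and 41.9, and it was the strongest of all members in RKO. It lay 159 bp before a wide shared peak from 11320459 to 11322795 with a MiaPaCa2 fold of 61.3, one of 6 members less than 1000 bp from such a peak.

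Chromosome 19 held 3 more of the 10 strongest members. The one from 9969035 to 9969997 had folds of 54.8 in MiaPaCa2, 29.1 in RKO, and 38.9 and 30.6 in the WT and delta-Repeat clones. The one from 7947735 to 7948446 had 47.3, 39.8, 35.8 and 27.3, and the one from 19660667 to 19661522 had 43.8, 48.5, 31.6 and 28.6. All 3 ranked within the first 74 peaks of every list. The others among the 10 lay on chromosome 1 (180470810 to 180471641, MiaPaCa2 fold 50.6), chromosome 2 (242511466 to 242512326, 57.1), chromosome 6 (167806111 to 167806582, 43.6) and chromosome 10 (134871725 to 134872322, 42.7). Judged by their poorest relative rank, the best 5 members also took in a member on chromosome 10 from 7859922 to 7860539. Its folds were 35.5, 30.9, 36.5 and 32.5. The member on chromosome 3 from 11761041 to 11761718, with 39.9, 34.8, 32.7 and 39.0, was the other. They ranked 60, 61, 12 and 22 and 42, 44, 19 and 10.

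At the opposite end stood a single region. The member on chromosome 1 from 121484595 to 121485417 had a fold of 1.84 in MiaPaCa2, 1.62 in RKO, and 1.78 and 1.87 in the WT and delta-Repeat clones. It was the weakest of the 750 in each list, yet its −log10 q values of 10.5, 5.88, 7.00 and 9.59 were not the lowest. The CTCF list had a peak there with nearly the same borders, from 121484599 to 121485418, and a fold of 2.07. Whether the signal at this place is binding or comes from the region itself was not tested. The next lowest fold of a member in MiaPaCa2 was 4.41. The other 4 members with the poorest relative rank owed it to 1 or more lists. The one on chromosome 2 from 152266546 to 152267341 had a fold of 12.3 in MiaPaCa2 (rank 595) and 3.83 in the WT clone (rank 1504 of 1515). It ranked 886 in RKO and 302 in the delta-Repeat clone. The one on chromosome 1 from 235097117 to 235098106 ranked 386 in MiaPaCa2 with a fold of 15.2, and 7158 of 7193 in RKO with a fold of 3.11. Those on chromosome 3 (140951043 to 140951545) and chromosome 9 (132949172 to 132949744) both had a fold of 3.45 and rank 2154 of 2160 in the delta-Repeat clone. The latter was also low in the MiaPaCa2 list, at rank 3486.

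Some members changed place between the pancreatic and the colon line. To compare lists of different length, the 750 members were put in order of fold within each list, with 1 the strongest. The following 6 were chosen after their values were seen, as the 3 with the greatest change of order in each direction. A member on chromosome 2 from 7006112 to 7006786 was member 11 in RKO with a fold of 39.2, and member 668 in MiaPaCa2 with a fold of 7.46. It was member 299 and 461 in the WT and delta-Repeat clones. On chromosome 1, the member from 209825501 to 209825935 was placed 23 in RKO and 718 in MiaPaCa2, with folds of 30.9 and 6.15. The one on chromosome 13 from 114278288 to 114278944 was placed 21 and 624, with folds of 31.5 and 8.46. These 3 stood near the top in the colon line alone. The reverse was seen on chromosome 2 from 238346731 to 238347373, where the places were 43 in MiaPaCa2, 683 in RKO, and 11 and 165 in the WT and delta-Repeat clones, at folds of 27.3, 5.68, 29.8 and 13.2. It was also seen on chromosome 21 from 37525000 to 37525803, with places of 76, 640, 109 and 139 and folds of 23.1, 6.43, 13.8 and 14.1. Another, on chromosome 19 from 1180208 to 1180859, was placed 87 in MiaPaCa2 and 673, 670 and 604 in RKO and the WT and delta-Repeat clones, so only the unmodified MiaPaCa2 list had it high. A shared peak in the sense of the overlap rule can therefore be near the top of 1 list and near the bottom of another.

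All 4 summits lay within 200 bp of each other at most members. Since members were chosen by overlap, peak widths limit how far apart their summits can lie. The distances expected from the widths alone were not computed. The MiaPaCa2 summit lay a median of 44 bp from the RKO summit, 53 bp from that of the WT clone and 47 bp from that of the delta-Repeat clone. Between RKO and the delta-Repeat clone the median was 38 bp, and between both clones 49.5 bp. By this measure lists from 1 cell line or 1 antibody lot were not closer than lists from different lines. Peak width and strength at members also differed between the lists, and their part in these distances was not tested. Median signed offsets lay between -5 and 3 bp. All 4 summits fell within 50 bp at 139 members (18.5%, 95% interval 15.8 to 21.5), within 100 bp at 339 (45.2%, 41.6 to 48.8) and within 200 bp at 624 (83.2%, 80.3 to 85.8). The distance between the outermost of the 4 summits had a median of 107.5 bp, where the median MiaPaCa2 peak width was 649.5 bp.

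**Figure D2:**
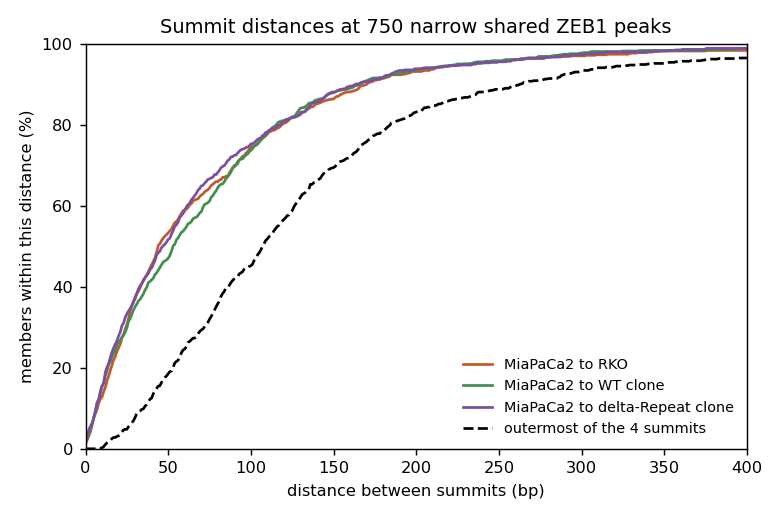
Share of the 750 members (%) whose summits lie within a given distance (bp), from MiaPaCa2 to each other ZEB1 list (coloured lines) and between the outermost of the 4 summits (dashed line). The 3 coloured lines run close together, with 47.1% to 53.3% of members within 50 bp, and the dashed line reaches 45.2% at 100 bp.

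Summits were closer together at stronger members. Of 4 groups of equal size by MiaPaCa2 fold, the weakest had 4 summits that spanned a median of 138 bp and lay within 50 bp at 12.8% of members (8.35 to 18.4). In the strongest group the span was 77 bp and the share 31.9% (25.3 to 39.1). By width the span rose. The narrowest of 4 groups, up to 519 bp, had a median span of 92.5 bp and the widest, from 796 bp, had 121 bp. Narrow peaks that were not in all lists had summits farther apart where they did meet a peak of another list. The medians were 75 bp for RKO (1813 peaks), 60 bp for the WT clone (478) and 70.5 bp for the delta-Repeat clone (886). Of these peaks, 37.5% (35.2 to 39.7), 45.6% (41.1 to 50.2) and 39.5% (36.3 to 42.8) had summits within 50 bp. For members it was 53.3% (49.7 to 57.0), 47.1% (43.4 to 50.7) and 51.7% (48.1 to 55.4), so only the WT clone intervals overlapped. The narrow peaks not in all lists were weaker and narrower than the members, and the part of strength in this was not tested. The wide shared peaks had medians of 70, 58.5 and 50.5 bp.

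The tightest summit agreement was at a member of middling strength on chromosome 17 from 76346257 to 76346740. Its summits lay at 76346551 in MiaPaCa2, 76346549 in RKO, and 76346548 and 76346543 in the WT and delta-Repeat clones, a span of 8 bp. Its folds there were 16.6, 9.26, 8.67 and 9.97. The member on chromosome 2 from 242511466 to 242512326, one of the 10 strongest, spanned 10 bp, with summits at 242512135, 242512139, 242512129 and 242512133. Its neighbour from 242512609 to 242513342 and a member on chromosome 9 from 37904006 to 37904677 each spanned 11 bp. A member on chromosome 6 from 168402889 to 168403389 spanned 12 bp, and was placed 133 in MiaPaCa2 and 79 in RKO but 382 and 421 in the WT and delta-Repeat clones. At the far end, the 4 summits lay within 500 bp at 738 members, which leaves 12 beyond it. The largest span was 975 bp, on chromosome 8 from 90769198 to 90769893, and a member on chromosome 2 from 264668 to 265072 spanned 726 bp. In both cases a neighbouring member met the same RKO peak. Another, on chromosome 11 from 14913089 to 14913777, spanned 628 bp, with the WT clone summit at 14913717 and the RKO summit at 14913089. These members were chosen after their values were seen.

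Members were narrower in the other lists on the whole. The median width was 538.5 bp in RKO, 370.5 bp in the WT clone and 430 bp in the delta-Repeat clone. The WT clone peak was wider than the MiaPaCa2 peak at 27 members (3.6%), the delta-Repeat clone peak at 60 (8%) and the RKO peak at 257 (34.3%). The limit of 1000 bp was therefore a limit for MiaPaCa2 alone: 67 members lay under RKO peaks of 1000 bp or more, and 4 under such peaks of the delta-Repeat clone. A member could also meet 2 peaks of another list, as happened at 37 members, 26 of them in RKO. The 5 narrowest members were 200 to 222 bp wide, on chromosomes 4, 18, 12, 3 and 5, with MiaPaCa2 folds from 4.65 to 6.81. In each of the other lists their folds lay between 4.25 and 10.1. Just inside the limit, the 5 widest members (998 or 999 bp) had MiaPaCa2 folds of 12.9, 23.3, 40.2, 9.11 and 13.8. Just outside it, the 5 narrowest of the wide shared peaks (1008 to 1015 bp) had folds of 30.4, 25, 35.8, 13.2 and 55.3.

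A small group of members came in close pairs. In 20 cases, made of 40 members, fewer than 1000 bp separated the end of one member from the start of the next, with gaps from 54 to 980 bp. Their MiaPaCa2 summits were 423 to 1481 bp apart, with a median of 781 bp. On chromosome 6 the members from 167806111 to 167806582 and from 167806662 to 167807168 were 79 bp apart. The first had folds of 43.6 in MiaPaCa2, 30.7 in RKO, and 27.3 and 26.8 in the WT and delta-Repeat clones, and the second 41.0, 29.7, 22.7 and 17.1. Their summits were 532 bp apart in MiaPaCa2, 533 in RKO, and 519 and 515 in the WT and delta-Repeat clones. On chromosome 2 the pair from 242511466 to 242512326 and from 242512609 to 242513342 kept its spacing more closely, at 658, 655, 659 and 650 bp. A pair on chromosome 10 (134870609 to 134871386 and 134871725 to 134872322) had 734, 715, 723 and 746 bp.

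The spacing was not so regular at every pair. In 17 pairs both members had separate peaks in all 4 lists, and the 4 spacings lay within 50 bp of each other at 5 of them, with a median range of 119 bp and a largest of 515 bp. The pair on chromosome 5 (16935467 to 16936234 and 16936700 to 16937611) was the most irregular, with 990 bp in MiaPaCa2, 1359 in RKO, and 1505 and 1356 in the WT and delta-Repeat clones. RKO joined 3 pairs into 1 peak each, the delta-Repeat clone 2 and the WT clone none. From the start of the first member to the end of the second, 19 of the 20 pairs covered 1000 bp or more, so the width rule counts as narrow 2 peaks that together reach the width of a wide one.

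**Figure D3:**
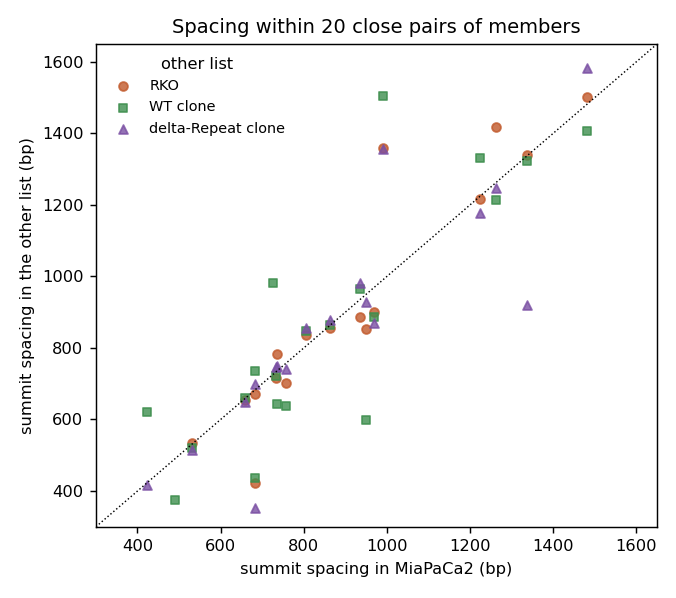
Distance between the summits (bp) of the 20 close pairs of members in MiaPaCa2 (x axis) and in each other ZEB1 list (y axis), leaving out pairs that a list joined into 1 peak. Points on the dotted line have equal spacing; 11 of 17 RKO, 8 of 20 WT clone and 13 of 18 delta-Repeat clone points lie within 50 bp of it.

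Most members had no other member nearby. The median distance from a member to the next was 531 kb between summits, and 51 (6.8%, 5.10 to 8.84) had another within 5 kb. Any other MiaPaCa2 ZEB1 peak lay within 5 kb of 170 members (22.7%, 19.7 to 25.8), against 28.2% (26.8 to 29.6) of narrow peaks not in all lists and 31.1% (24.1 to 38.8) of wide shared peaks. A wide shared peak lay within 5 kb of 8 members. Over windows of 1 Mb, 385 held a single member and 99 held 2. The densest was on chromosome 13 from 114000001 to 115000000, with 8, followed by windows on chromosome 17 (80000001 to 81000000) and chromosome 9 (139000001 to 140000000), with 6 each.

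Every chromosome with ZEB1 peaks had members. Chromosome 1 had the most, 64, and chromosome 21 the fewest, 8. By length, chromosome 19 had 0.829 members per Mb, chromosome 17 0.617 and chromosome 16 0.499, while the X chromosome had 0.0581. Members were 17.5% (13.2 to 22.5) of the MiaPaCa2 peaks of chromosome 19 and 17.4% (13.2 to 22.2) of those of chromosome 17. On the X chromosome they were 13.2% (6.23 to 23.6). Each of these intervals includes the share over the whole list, so these densities do not set members apart from the list. Of the MiaPaCa2 peaks of chromosome 16, 26.0% (19.6 to 33.2) were members, and of those of chromosome 3 11.2% (7.48 to 15.8), against 15.6% over the list. The largest shares belong to a choice among 23 chromosomes, and their difference was not tested.

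Members lay near chromosome ends about as often as other narrow ZEB1 peaks of the strongest fold class. In the outer 5 Mb, leaving out the unassembled short arms of chromosomes 13, 14, 15, 21 and 22, lay 185 members (24.7%, 21.6 to 27.9). The background over all MiaPaCa2 ZEB1 peaks was 20.1% and over CTCF peaks 10.7%. For narrow peaks not in all lists the share was 18.6% (17.4 to 19.9), and for wide shared peaks 32.9% (25.8 to 40.7). Within the strongest fold class, however, it was 25.8% (22.4 to 29.6) of members and 26.0% (22 to 30.5) of narrow peaks not in all lists. In class 3 it was 23.1% (15.4 to 32.4) and 20.7% (18.3 to 23.2). The gap seen over all classes was thus not seen among the strongest peaks of both sets.

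CTCF was not used to choose the members. It met 180 of them by at least 1 bp (24%, 21 to 27.2), where the background over all MiaPaCa2 ZEB1 peaks was 20.2%. The share was 19.3% (18.0 to 20.6) among narrow peaks not in all lists and 22.6% (16.4 to 29.7) among wide shared peaks. In the strongest fold class it was 22.3% (19.0 to 25.9) of members and 21.6% (17.8 to 25.8) of narrow peaks not in all lists. These 2 sets thus lay close together there. In class 3 the shares were 29.8% (21.2 to 39.6) and 21.1% (18.7 to 23.6), and in class 2 34.9% and 19.1%. Where the overlap had to cover 50% of both peaks it met 96 members (12.8%, 10.5 to 15.4), where the background was 8.53% and the share among narrow peaks not in all lists 7.88% (7.05 to 8.78). By fold class these shares were 11.6% (9.12 to 14.4) of members and 11.2% (8.35 to 14.5) of the others in the strongest class, 16.3% (9.82 to 24.9) and 10.5% (8.76 to 12.5) in class 3, and 20.9% (10.0 to 36.0) and 7.29% (5.86 to 8.95) in class 2, with 43 members. Since wide peaks meet others more readily, the nearness of summits is the better measure. A CTCF summit lay within 100 bp of the ZEB1 summit at 69 members (9.20%, 7.23 to 11.5). The background was 7.06%, the share among narrow peaks not in all lists was 6.66% (5.89 to 7.49) and among wide shared peaks 6.71% (3.40 to 11.7). In the strongest fold class the shares were 8.05% (6.00 to 10.5) of 596 members and 6.74% (4.56 to 9.54) of 430 narrow peaks not in all lists. In class 3 they were 15.4% (9.06 to 23.8) of 104 members and 7.46% (5.96 to 9.19) of 1073. For both overlap rules the intervals over all classes do not overlap, while under the summit rule they do. Those of class 2 do not overlap under the 50% rule. In the strongest class and in class 3 the intervals overlap under every rule. All these intervals cover counting error only, and no test between the sets was made. A median of 6485 bp separated a member's summit from the nearest CTCF summit.

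**Figure D4:**
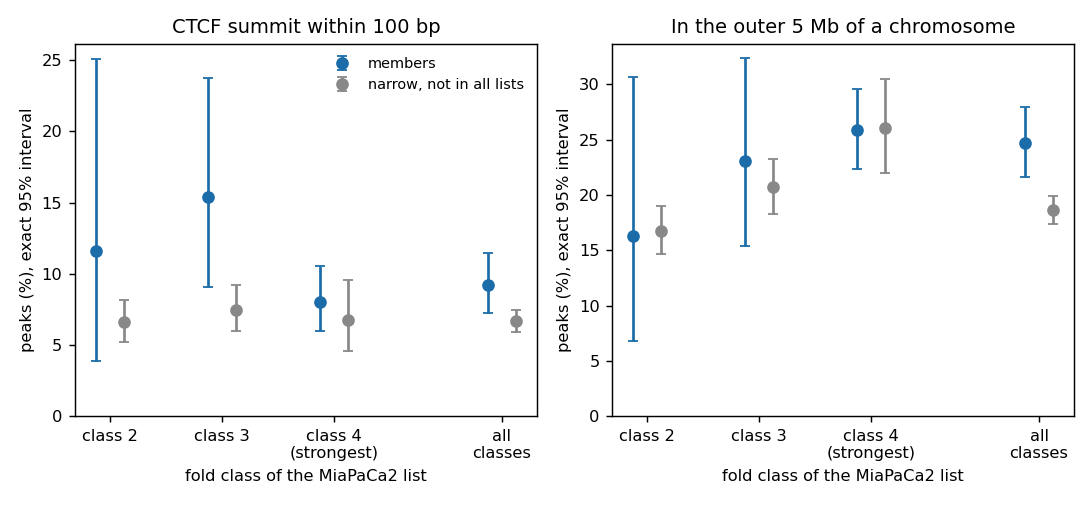
Share of peaks (%, with exact 95% intervals) that had a CTCF summit within 100 bp (left) or lay in the outer 5 Mb of a chromosome (right), for members and for narrow peaks not in all lists, by fold class of the MiaPaCa2 list and over all classes; class 1, with 7 members, is left out. Members stand at 9.20% and 24.7% over all classes, and the 2 sets lie close together in class 4.

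The strongest member with a CTCF summit within 100 bp was on chromosome 16 from 81068754 to 81069410. Its ZEB1 folds were 33.0 in MiaPaCa2, 16.9 in RKO, and 26.8 and 32.8 in the WT and delta-Repeat clones, and its CTCF fold was 53.7. The summits were 88 bp apart, and the CTCF peak covered nearly the same stretch (81068721 to 81069459). On chromosome 12, the member from 48137622 to 48138442 had a ZEB1 fold of 30.2 in MiaPaCa2 and 9.91 in RKO, and a CTCF summit 26 bp away with a fold of 14.3. The member on chromosome 6 from 136871467 to 136872356 had folds of 25.9, 12.3, 23.7 and 37.4 and was placed 50, 296, 18 and 6 among the members, highest in the delta-Repeat clone. CTCF had a fold of 35 there, with its summit 32 bp away. Members on chromosome 1 (27995046 to 27995953, MiaPaCa2 fold 26.9) and chromosome 12 (6944745 to 6945254, 25.3) had CTCF folds of 21.7 and 14.6 at 51 and 55 bp. None of the 10 strongest members was in this group, which held 9.20% of all members, and 10 are too few to set against that share. The strongest member of all, on chromosome 1 from 89990490, and the next, on chromosome 5 from 138088118, did overlap a CTCF peak. The CTCF summit lay 276 and 430 bp away, with folds of 5.45 and 6.39, below the median of the whole CTCF list. The others of the 10 met no CTCF peak. Among members that overlapped a CTCF peak, the nearest CTCF peak had a median fold of 14.7, where the whole CTCF list had 10.8. Over all members the nearest CTCF peak had a median fold of 11.7. CTCF peaks at ZEB1 peaks that are not members were not compared.

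Members of chromosomes 1 and 10 stood mostly higher in the order of the WT clone than in that of the delta-Repeat clone, although every member is by rule present in both. Of the 64 members of chromosome 1, 52 (81.2%, 69.5 to 89.9) did so. Their median place was 272 and 477 in the WT and delta-Repeat clones and 324 in unmodified MiaPaCa2. Of the 29 on chromosome 10, 21 (72.4%, 52.8 to 87.3) stood higher in the WT clone, with median places of 209, 381 and 267. Over the 657 members of the other chromosomes it was 44.3% (40.5 to 48.2). Places are given among the same members in both clones, so higher places on some chromosomes mean lower places on others. Chromosome 12 lay the other way, with 7 of 37 (18.9%, 7.96 to 35.2) higher in the WT clone and median places of 492 and 402 in the WT and delta-Repeat clones and 519 in MiaPaCa2. Chromosome 21 had 6 of 8 (75%, 34.9 to 96.8) higher in the WT clone, a share above that of chromosome 10 on few members. Chromosomes 1 and 10 were looked at because of earlier results of these data, and chromosomes 12 and 21 were named after all 23 had been seen. Peaks of 1 chromosome are not independent, and each clone is 1 sample. The clones differ in their origin from single cells as well as in the edit, and these cannot be told apart.

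**Figure D5:**
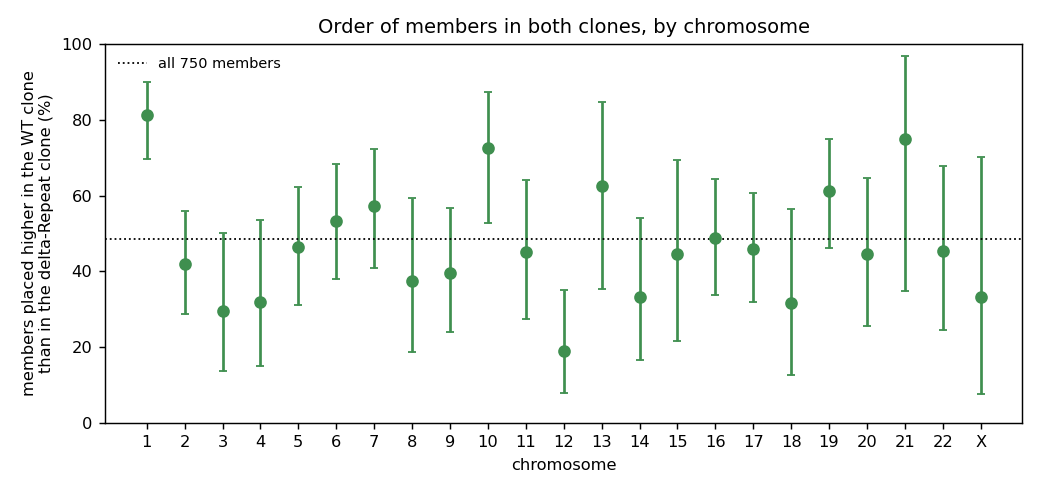
Share of members (%) that stand higher in the fold order of the 750 in the WT clone than in the delta-Repeat clone, by chromosome, with exact 95% intervals that cover counting error only; the dotted line is the share over all 750 (48.5%). The intervals of chromosome 1 (81.2%) and chromosome 10 (72.4%) lie above the line and that of chromosome 12 (18.9%) below it, while chromosome 21 (75%), with 8 members, has an interval that spans it.

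The members with the greatest change of order between the clones, 3 higher in the WT clone and 4 higher in the delta-Repeat clone because of a tie, were chosen after their values were seen. One on chromosome 1, between 151566543 and 151567112, was placed 145 and 712 in the WT and delta-Repeat clones, at folds of 12.7 and 5.34. It was placed 569 in MiaPaCa2 and 343 in RKO. Also on chromosome 1, the member from 16471385 to 16472306 was placed 196 and 727 in the WT and delta-Repeat clones, and 294 in MiaPaCa2. A member on chromosome 19 from 3280594 to 3281136 was placed 149 and 687. The opposite change was seen on chromosome 14 between 77278575 and 77279219, where the places were 748 and 176 and the folds 4.01 and 12.9. A member of chromosome 1 also went this way, against most of that chromosome, from 161123565 to 161124309 with places of 727 and 187 and folds of 4.71 and 12.7. On chromosome 22, between 20004382 and 20005047, the folds were 4.42 and 12.4 and the places 741 and 201. The member of chromosome 2 that was nearly last in the WT clone list, at 152266546, was placed 749 and 187.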

How the data were processed

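Per the submitters' processing notes, Bowtie2 2.2.6, SAMtools and MACS2 2.1.0.20150731 were used with the builds hg19 and GRCh37; caller settings, the control input and any pooling are not given in the sources used here. Fold enrichment, as deposited, is a linear ratio at the summit from the authors' peak caller. Both p-value and q-value were deposited as −log10 by the authors' caller. The deposited score is 10 times the −log10 q and the deposited summit offset counts bases from the peak start; the score was not used further. Folds depend on each sample's unknown read depth and control, so they rank peaks within a list only.

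Of 9 samples, 5 have a list; the 4 inputs were not analysed here. Members and lists were chosen with earlier results of these data known. Overlap means at least 1 bp. Where several peaks of a list met a member, that of highest fold was used. Fold classes are 4 equal parts of the MiaPaCa2 list, and of each other list where stated. Intervals are exact Clopper-Pearson 95%. Chromosome length is the largest peak end over the 5 lists. Named regions are the 10 members of highest MiaPaCa2 fold, and 5 each by best and poorest worst relative rank, smallest summit span, strongest fold with a CTCF summit within 100 bp, and width. Code in Python 3.11.15 (scipy 1.17.1, pandas 2.3.3, numpy 2.4.6, matplotlib 3.10.9) was tested on simulated lists beside bedtools 2.31.1. Alternatives were a stricter threshold (fold at least 5, −log10 q at least 10), 50% of both peaks, summits within 100 bp, equal list lengths and a 500 bp limit. Motifs, gene positions, gene lists and peak sequences were not analysed, for want of a genome and annotation of that build.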

Additional observations from a re-analysis of the deposited data

How the results depend on the processing

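No paired analysis was possible because each condition has 1 sample. The number of members depended on every setting tried. It fell from 750 to 432 with 50% of both peaks, 412 with summits within 100 bp and 361 with the stricter threshold in all 4 lists. With lists of equal length it was 451, and with a width limit of 500 bp 158. Apart from the summit rule, which does not ask for overlap, these settings can only remove members by construction. CTCF met 12.8% of members with 50% of both peaks, 9.20% with summits within 100 bp and 20.8% with the stricter threshold, against 24%. For this result the stricter threshold also cut the CTCF list, and the part of that cut in the fall was not tested. The share with all 4 summits within 100 bp rose from 45.2% to 59.0% with the stricter threshold and 50.6% with the 500 bp limit; the cause was not tested. The share in the outer parts of chromosomes was 15.3% for 2 Mb and 33.3% for 10 Mb, as the window sets it. These windows, counting members less than 1 kb apart once, matching the nearest summit and ordering clones by −log10 q were chosen after seeing the data. The other 3 planned and 5 added values stayed within the interval of the reported share. Alternatives on motifs, gene positions and gene lists were not run. Unknown depth limits statements on weak peaks.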
